A study of Mus musculus with 2 samples.

Results

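The cells described here are T cells that were captured together with dissociated pancreatic islets of virgin and multiparous mice. They were chosen from single-cell RNA sequencing data by their T cell receptor transcripts. A cell barcode was a member when Cd3d, Cd3e, Cd3g, Trac and Trbc2 together gave at least 3 unique molecular identifiers (UMIs, each a tag on 1 captured RNA molecule) from at least 2 of these 5 genes, and when Cd79a and Ms4a1, which mark B cells, gave 0. Barcodes with 15% or more of their UMIs from the islet hormone genes Ins1, Ins2, Gcg, Sst and Ppy were left out. The rule found 127 T cells among 4391 kept cells of the virgin library and 42 among 3374 kept cells of the multipara library. Both groups were female C57BL/6J mice with no genetic change. Multipara mice entered the protocol at 9 weeks of age, went through 3 successive pregnancies and gave their islets 3 weeks after the last delivery. Virgin mice of matching age were the controls. Islets of both groups were held in serum-containing medium and taken apart with trypsin before capture with a 10x 3′ kit. There was 1 library per group, the labels do not say how many mice went into each although the study describes more than 1 mouse per group, so that a library may pool mice, and no sort for immune cells was described. The values below therefore compare 2 libraries, and with no replicate library the spread between animals is unknown.

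T cells recognise peptides held by major histocompatibility complex (MHC) molecules through a receptor made of variable alpha and beta chains and the invariant CD3 chains. Helper and regulatory T cells carry the coreceptor CD4, and cytotoxic T cells carry CD8. Naive T cells circulate between blood and lymph nodes under factors such as Klf2, Lef1 and Tcf7 and the homing receptor Ccr7. Effector cells instead make chemokines, cytokines and granule proteins and enter tissues, where many carry Cd69 and Cxcr6. Healthy islets hold mostly macrophages, with few lymphocytes, while T cells are the cells that destroy beta cells in autoimmune diabetes. A suspension of islets can also carry lymphocytes from blood and from the lymph nodes of the pancreas, and these cannot be told apart here from T cells inside islets.

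The virgin library held 5463 barcodes and the multipara library 5075. A barcode was kept if it had over 200 but under 6000 genes, less than 10% mitochondrial UMIs and a total below 60000 UMIs. Under the hormone limit there were 952 kept virgin cells and 601 kept multipara cells. The libraries shared 7 barcode sequences, and 0 of these belonged to a T cell. A doublet caller marked 61 and 44 kept cells.

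T cells were a larger share of the virgin library. They made up 2.89% of kept virgin cells (95% interval 2.42 to 3.43) and 1.24% of kept multipara cells (0.899 to 1.68). Intervals here and below are exact and cover counting error only. Of the kept cells under the hormone limit, T cells were 13.3% in the virgin library and 6.99% in the multipara library. B cells, defined by at least 3 UMIs of Cd79a and Ms4a1 and none of the T cell genes, differed in the same direction, with 172 cells (3.92%) in the virgin and 41 cells (1.22%) in the multipara library. T cells were therefore 42.5% of T and B cells together in the virgin library (36.8 to 48.3) and 50.6% in the multipara library (39.4 to 61.8), and these intervals overlap.

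**Figure D1:**
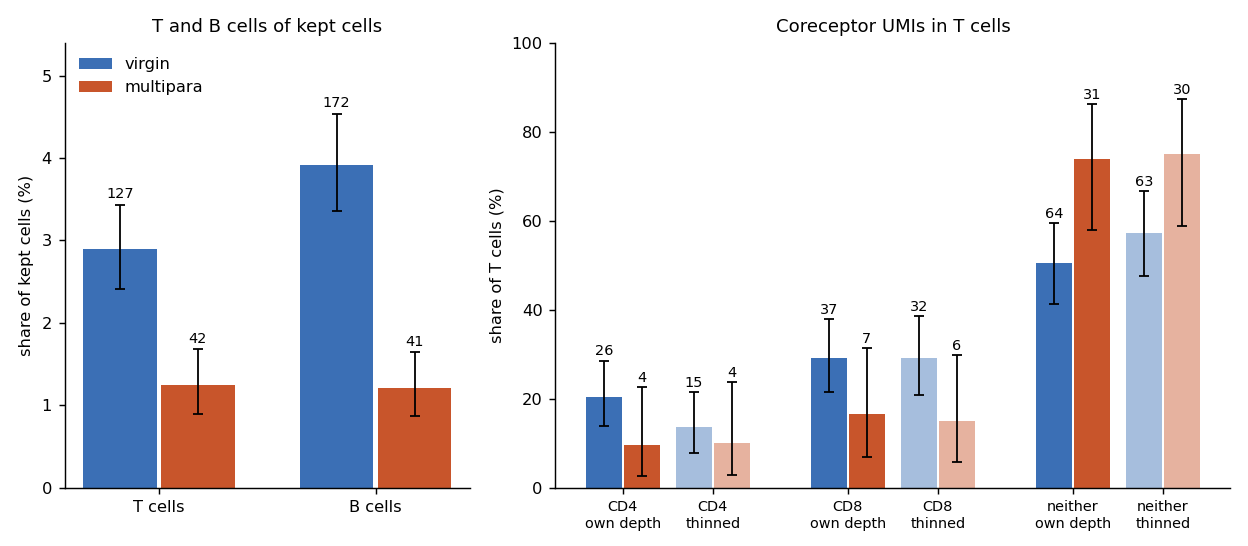
Left, T and B cells as a share of kept cells in percent in the virgin (blue) and multipara (orange) library, and right, T cells with Cd4 UMIs, with Cd8a or Cd8b1 UMIs, or with neither, as a share of T cells at their own depth and after thinning to 2200 UMIs per cell (paler bars). Bars are shares, lines are exact 95% intervals and each bar carries its number of cells, so that the virgin library shows the higher share of T cells (2.89% against 1.24%) and the multipara library the higher share with no coreceptor UMI (73.8% against 50.4%).

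The members were not marginal to the rule. The T cell genes gave a median of 16 UMIs per virgin cell and 15 per multipara cell, and at least 8 UMIs were found in 117 virgin cells and in each of the 42 multipara cells. All 5 genes were detected in 69 and 24 cells. Just inside the rule were 1 virgin cell with 3 UMIs and 6 virgin cells with 4 UMIs. Just outside it were 8 virgin and 3 multipara barcodes with 2 UMIs, and 2 virgin barcodes with 3 or more UMIs from only 1 gene. The summed level of the 5 genes, which chose the cells, was 5026 CPM in virgin and 5024 CPM in multipara cells, where CPM is the UMIs of a gene per 1000000 UMIs of all T cells of the library.

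Genes of the T cell receptor pathway that the rule did not use were present. Lck, the kinase that starts receptor signalling, was found in 76 virgin and 26 multipara T cells, Lat in 86 and 31, Cd2 in 91 and 33, and Cd28 in 85 and 26. All 20 genes of this list were measured, meaning at least 10 UMIs in both libraries together. Their summed level was 6377 CPM in virgin and 6566 CPM in multipara T cells, with a log2 ratio (multipara over virgin) of 0.04 (−0.06 to 0.14), and the same genes gave 1183 and 996 CPM in B cells. Single members ranged from Zap70 at −0.93 (57 and 12 UMIs) to Cd6 at 0.73 (48 and 32 UMIs), among those with over 50 UMIs in all.

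Markers of other cell types were mostly at or near 0. Of the 12 B cell markers, Ebf1, Pax5 and H2-Aa had 0 UMIs in T cells of both libraries, as did Cd79a and Ms4a1 by definition, and Cd79b had 1 and 0. The B cell list summed to 158 UMIs in virgin and 45 in multipara T cells, and most of these came from Ighm (82 and 27 UMIs) and Igkc (51 and 5 UMIs). Igkc was also found in 41.0% of virgin and 7.36% of multipara endocrine droplets, those with at least 15% hormone UMIs. Of the 12 macrophage and myeloid markers, Csf1r, C1qc, Adgre1, Ly86 and Fcgr3 were at 0 in both libraries, and Ccr2, which T cells also use, gave 19 of the 28 virgin UMIs and 6 of the 10 multipara UMIs. Of the 8 natural killer (NK) cell markers, Ncr1, Klra4, Klra8 and Tyrobp were at 0 in both. The NK list still summed to 58 UMIs in virgin and 14 in multipara T cells, and Klre1 gave 33 of the virgin UMIs. The 11 exocrine genes gave 0 and 2 UMIs. Hormone genes were a median of 1.75% of a virgin T cell's UMIs and 4.30% of a multipara T cell's. The 10 endocrine genes together stood at 19051 and 37484 CPM in T cells, and at 12317 and 34544 CPM in B cells. Ins1, for example, had 1605 UMIs spread over all 127 virgin T cells and 1604 over all 42 multipara T cells. Taking endocrine and exocrine genes out of the total kept all 73 single genes recomputed there within the interval of their reported ratio. Any other part of this hormone RNA in the ratios below was not tested.

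A pair of multipara barcodes stood apart from the other members. The first had 37674 UMIs and 5227 genes, against 1128 to 8172 UMIs in virgin T cells and 1942 to 7955 UMIs in the other 40 multipara T cells. It gave 20.8% of all UMIs of multipara T cells. It had 162 UMIs of the 5 T cell genes and 231 UMIs of cycling genes, with 23 of the 23 listed cycling genes detected, and it was not called a doublet. The second had 9514 UMIs, of which 4588 (48.2%) came from haemoglobin genes, and it was the only T cell that the doublet caller marked. Most results that rest on them are given with and without both barcodes. The Trbc1 share, the fold values against the floor and some single genes are given over all T cells only. Without them the multipara library kept 40 T cells with 133743 UMIs, against 450672 UMIs in virgin T cells, and the median depth was 3376 UMIs per virgin and 2997 per multipara T cell.

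**Figure D2:**
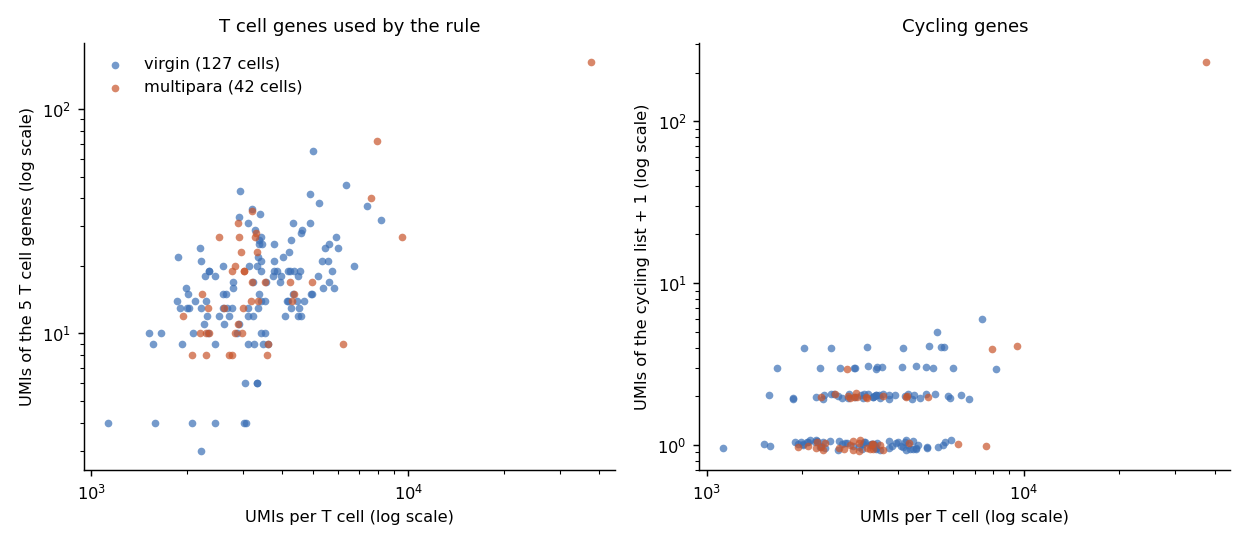
Each point is 1 T cell of the virgin (blue) or multipara (orange) library, with its UMIs on a log x axis and, on log y axes, the UMIs of the 5 genes used to choose the cells (left) and the UMIs of 23 cycling genes plus 1, with a small vertical jitter (right). A single multipara cell lies far to the upper right of both panels, at 37674 UMIs, 162 T cell gene UMIs and 231 cycling UMIs, while virgin cells reach at most 8172 UMIs and 5 cycling UMIs.

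Coreceptor transcripts were sparse. Cd4 (chromosome 6, 124864692 to 124888221, minus strand, GRCm38) gave 37 UMIs in 26 virgin cells and 7 UMIs in 4 multipara cells. Cd8a (chromosome 6, 71373427 to 71379173) gave 47 UMIs in 30 virgin cells and 7 UMIs in 6 multipara cells, and its partner chain gene Cd8b1 (chromosome 6, 71322788 to 71337494, beside it on the plus strand) gave 101 UMIs in 33 cells and 21 UMIs in 6 cells. As background, Cd4 was seen in 6 of 3439 virgin endocrine droplets (0.174%), whose median depth was 21944 UMIs, and Cd8b1 in 4 (0.116%), against 20.5% and 26.0% of virgin T cells.

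Cells with a Cd4 UMI and no Cd8a or Cd8b1 UMI were called CD4 cells, and the reverse CD8 cells. CD4 cells were 26 of 127 virgin T cells (20.5%, 13.8 to 28.5) and 4 of 42 multipara T cells (9.52%, 2.66 to 22.6). CD8 cells were 37 of 127 (29.1%, 21.4 to 37.9) and 7 of 42 (16.7%, 6.97 to 31.4), or 5 of 40 (12.5%) without the pair of barcodes, both of which were CD8 cells. No cell had both coreceptors, 0 of 127 and 0 of 42. With the limit for a count of 0 set at 3 counts, which is not an exact interval, this allows shares of up to 2.36% and 7.14%. These are shares of cells with UMIs of both and no limit on cells that express both. The remaining 64 virgin cells (50.4%, 41.4 to 59.4) and 31 multipara cells (73.8%, 58.0 to 86.1) showed neither.

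A cell with few UMIs can miss its coreceptor. T cells were therefore thinned to 2200 UMIs each, which left out 17 virgin and 2 multipara cells. At this depth CD4 cells were 13.6% and 10.0%, CD8 cells 29.1% and 15%, and cells with neither 57.3% (47.5 to 66.7) and 75.0% (58.8 to 87.3). The intervals for cells with neither coreceptor overlapped. Among thinned cells with a coreceptor, CD8 cells were 32 of 47 in the virgin library (68.1%, 52.9 to 80.9) and 6 of 10 in the multipara library (60.0%, 26.2 to 87.8). At the cells' own depth they were 37 of 63 (58.7%, 45.6 to 71.0) and 7 of 11 (63.6%, 30.8 to 89.1), and 5 of 9 multipara cells (55.6%) without the pair of barcodes. The direction of this difference thus turned with the setting, and it was smaller than the counting error in each. The 3 coreceptor genes summed to 410 and 193 CPM, a log2 ratio of −1.09 (−1.65 to −0.56), and of −1.39 (−2.11 to −0.73) without the pair of barcodes.

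CD8 and CD4 cells carried different programmes in both libraries. The coreceptors defined the classes and are no finding, and the multipara values rest on 7 and 4 cells, so the values are given for each library without a test. Log2 ratios of CD8 over CD4 had 20 CPM added to both levels, and where a class was at 0 UMIs the ratio depends on this addition. Of 2001 genes with at least 20 UMIs in these cells, 35 (1.75%) were at 1 or more and 68 (3.4%) at −1 or less in both libraries. Without the pair of barcodes the shares were 1.95% and 4.97% of 1690 genes. Apart from Cd8a and Cd8b1, the genes highest in CD8 cells were Ccl5, Glipr2, Nkg7, Sf3a3, Fam241a, Xcl1, Runx3 and Ctla2a. Beside Cd4 itself, those highest in CD4 cells were Izumo1r, Tnfrsf4, Sostdc1, Ier5l, Timp2, Capg, Itgav, 2310001H17Rik and Tank.

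Ccl5, a chemokine of effector and memory T cells, gave 514 UMIs in virgin CD8 cells and 41 in virgin CD4 cells, a log2 ratio of 2.69. In the multipara library it gave 104 UMIs in CD8 cells and 0 in CD4 cells, a fitted ratio of 6.36, and 100 of these UMIs remained without the pair of barcodes. Nkg7, a protein of cytotoxic granules, gave 100 and 8 UMIs in virgin CD8 and CD4 cells (2.51) and 31 and 0 in multipara cells, where 12 remained without the pair. Runx3, the factor that sets the CD8 lineage and represses Cd4, gave 30 and 2 UMIs, and 11 and 0 (4 without the pair). Effector genes accordingly lay on the CD8 side in both libraries. Of the 8 effector genes with enough UMIs, 5 passed 1 in both libraries and 0 passed −1, and without the pair the count was 5 of 7.

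Izumo1r, the folate receptor FR4 of regulatory and unresponsive CD4 cells, gave 50 UMIs in virgin CD4 cells and 2 in virgin CD8 cells (−4.24), and 18 and 0 in multipara cells. Tnfrsf4, the costimulatory receptor OX40, gave 47 and 2 UMIs in virgin cells (−4.16) and 32 and 2 in multipara cells (−4.89). Ikzf2, the factor Helios, stood at −2.05 with 34 and 13 UMIs in virgin cells and gave 16 and 0 in multipara cells. On the regulatory list 5 of 5 genes with enough UMIs lay on the CD4 side beyond −1 in both libraries, and 4 of 5 without the pair, where Tnfrsf18 dropped out. Activated and tissue-resident genes did so in 7 of 15 cases (9 of 15 without the pair), with Tnfrsf4, Icos, Rora, Bhlhe40, S100a4, S100a11 and Rgs1. Klf2 lay on the CD8 side, at 1.75 in virgin cells (380 and 59 UMIs in CD8 and CD4 cells) and 2.43 in multipara cells (38 and 2 UMIs, and 24 in CD8 cells without the pair). With Dapl1 and Txk it made up the 3 of 14 naive and memory genes that passed 1 in both libraries, and without the pair 5 of 14 passed. Ccr7 stood at 0.81 in virgin and −0.93 in multipara cells, and at −0.06 in the latter without the pair. Lef1 stood at 0.50 in virgin and −0.50 in multipara cells, and turned to 0.66 without the pair.

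**Figure D3:**
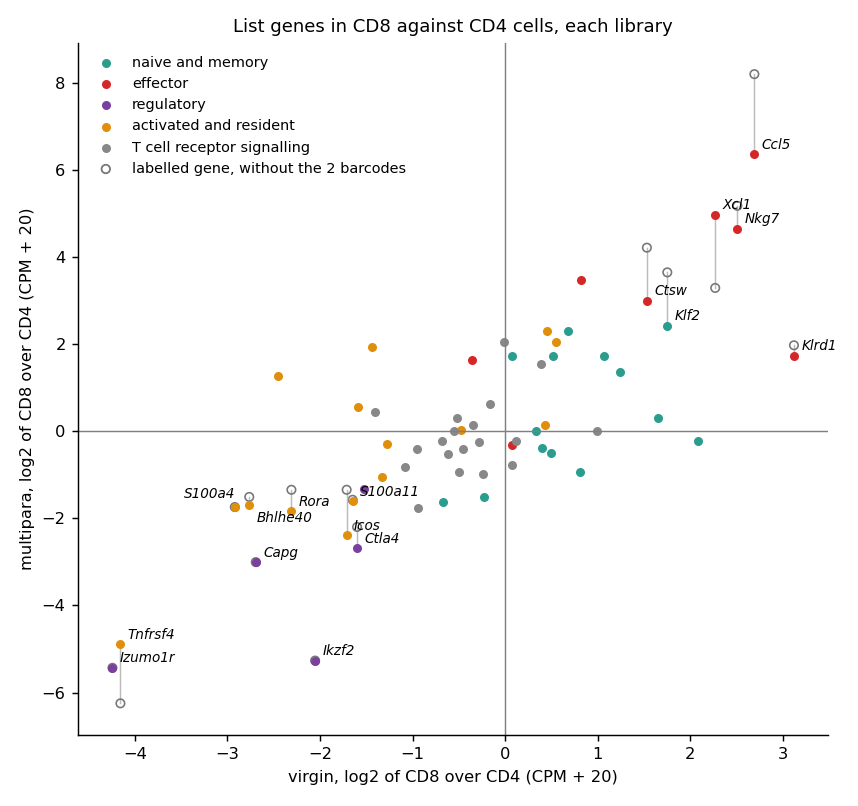
Log2 ratio of CD8 over CD4 cells (20 CPM added) in the virgin library (x axis) and the multipara library (y axis) for list genes with at least 20 UMIs, coloured by list, with grey circles for the multipara ratio of labelled genes without the pair of barcodes that stand apart. Effector genes such as Ccl5 (2.69 and 6.36) sit in the upper right and regulatory genes such as Izumo1r (−4.24 and −5.43) in the lower left.

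In cells with neither coreceptor, marker genes of both classes were found. Ccl5 stood at 3073 CPM in virgin and 2497 CPM in multipara cells of this class, and Izumo1r at 336 and 178 CPM, both between the virgin CD4 and CD8 levels. Tnfrsf4 stood at 269 CPM in virgin and 661 CPM in multipara cells with neither coreceptor.

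Between the libraries, most genes lay near equality. Of 5665 genes measured in T cells, 2766 were higher and 2899 lower in multipara cells, with a median log2 ratio of −0.01. In the 2393 genes whose mean level reached 50 CPM, 97 (4.05%) had a log2 ratio of 1 or more and 86 (3.59%) of −1 or less. Without the pair of barcodes these shares were 3.51% and 3.64%. They are the background for the list counts that follow, in which a gene past 1 or −1 also reached a mean of 50 CPM.

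The naive and memory list summed lower in multipara T cells, and without the pair of barcodes most of the difference in the sum lay in Klf2. All 15 were measured, 13 were lower and 2 higher, and 3 of 13 with at least 50 CPM passed −1, against 3.59% of all genes. The list summed to 4562 CPM in virgin and 2808 CPM in multipara cells, with the log2 ratio at −0.70 (−0.84 to −0.56). Without the pair of barcodes the multipara level was 3507 CPM and the ratio −0.38 (−0.53 to −0.23), with 10 genes lower, 5 higher and 4 of 14 past −1, against 3.64%. The median log2 ratio of the 15 genes was then −0.41, against −0.03 over all genes, so the lower values were not confined to Klf2. In B cells, the same list was higher in the multipara library, at 0.22 (0.06 to 0.37), and in endocrine droplets it stood at −0.16.

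Klf2 gave the largest part of the difference in the summed level. Without Klf2, a setting chosen after seeing the data, the list stood at −0.43 (−0.59 to −0.27) over all cells, and at 3160 and 2991 CPM or −0.08 (−0.24 to 0.08) without the pair of barcodes, where the interval includes 0. Klf2 (chromosome 8, 72319033 to 72321656, plus strand) encodes the factor that keeps S1pr1 on in resting T cells. It gave 632 UMIs in 79 of 127 virgin T cells and 83 UMIs in 23 of 42 multipara T cells, that is 1402 and 459 CPM and a log2 ratio of −1.61 (−1.96 to −1.28). Without the pair of barcodes the ratio was −1.44 (−1.82 to −1.08). At the cells' own depth, the median cell with any Klf2 UMI had 5 in virgin cells and 2 in multipara cells, and the highest had 38 and 12. At equal depth, Klf2 was seen in 60.0% of virgin (50.2 to 69.2) and 45.0% of multipara T cells (29.3 to 61.5), and these intervals overlap. In B cells Klf2 was at 671 and 733 CPM.

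Klf2 was lower in each multipara T cell class, with the pair of barcodes left out. Among CD8 cells it was 380 UMIs in 37 virgin cells and 24 in 5 multipara cells, with the log2 ratio at −0.79 (−1.46 to −0.20). Among cells with neither coreceptor it was 193 and 43 UMIs, at −1.02 (−1.53 to −0.53), and among CD4 cells 59 UMIs in 26 virgin cells and 2 UMIs in 4 multipara cells. A split by Ccl5, chosen after the values were seen, gave 273 and 5 Klf2 UMIs in 37 and 13 cells with a Ccl5 UMI, at −3.96 (−5.59 to −2.72). In cells with no Ccl5 UMI, 359 and 64 Klf2 UMIs gave −0.77 (−1.17 to −0.38). These intervals do not overlap, but they treat the UMIs of 1 cell as independent. A single virgin cell with Ccl5 held 38 of the 273 Klf2 UMIs, so a difference between the 2 classes was not established. In all, 27 of 37 virgin and 4 of 13 multipara cells with Ccl5 had a Klf2 UMI.

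Txk and Dapl1 had few UMIs. Without the pair, in cells with no Ccl5 UMI, Txk gave 32 and 3 UMIs, at −1.69 (−4.04 to −0.02). Dapl1 gave 26 and 3 UMIs there, at −1.39 (−3.76 to 0.31). In cells with a Ccl5 UMI they stood at −0.60 and −0.77, with intervals that include 0. Foxp1, Lef1, Tcf7 and Satb1 differed less than Klf2 over all T cells. Foxp1, a factor of T cell quiescence, gave 90 and 14 UMIs, and the log2 ratio was −1.37 (−2.30 to −0.55), or −1.04 without the pair of barcodes. Lef1 and Tcf7, which maintain naive and memory cells, stood at −0.93 and −0.88, and at −0.65 (−1.46 to 0.09) and −0.63 (−1.36 to 0.03) without the pair, where both intervals reach 0. Satb1, a chromatin organiser, went from −0.71 to −0.34. Ccr7 and Il7r, the receptors for lymph node chemokines and for interleukin 7, were the 2 genes of the list not lower over all cells, at 0.14 (−0.28 to 0.55) and 0.13 (−0.39 to 0.64), and at 0.36 and 0.57 without the pair. S1pr1, the receptor that lets T cells leave tissue, gave 86 and 26 UMIs, and its ratio was −0.41 (−1.10 to 0.24), which turned to 0.03 (−0.67 to 0.67) without the pair. Gimap6 and Igfbp4 turned in the same way, from −0.16 to 0.24 and from −0.15 to 0.28, all with intervals that include 0. Ccr7 was found in 49 virgin cells (38.6%) and 14 multipara cells (33.3%), and 30 and 6 of them also had Lef1. Only 9 of the 37 virgin and 1 of the 14 multipara cells with Ccl5 also had Ccr7.

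**Figure D4:**
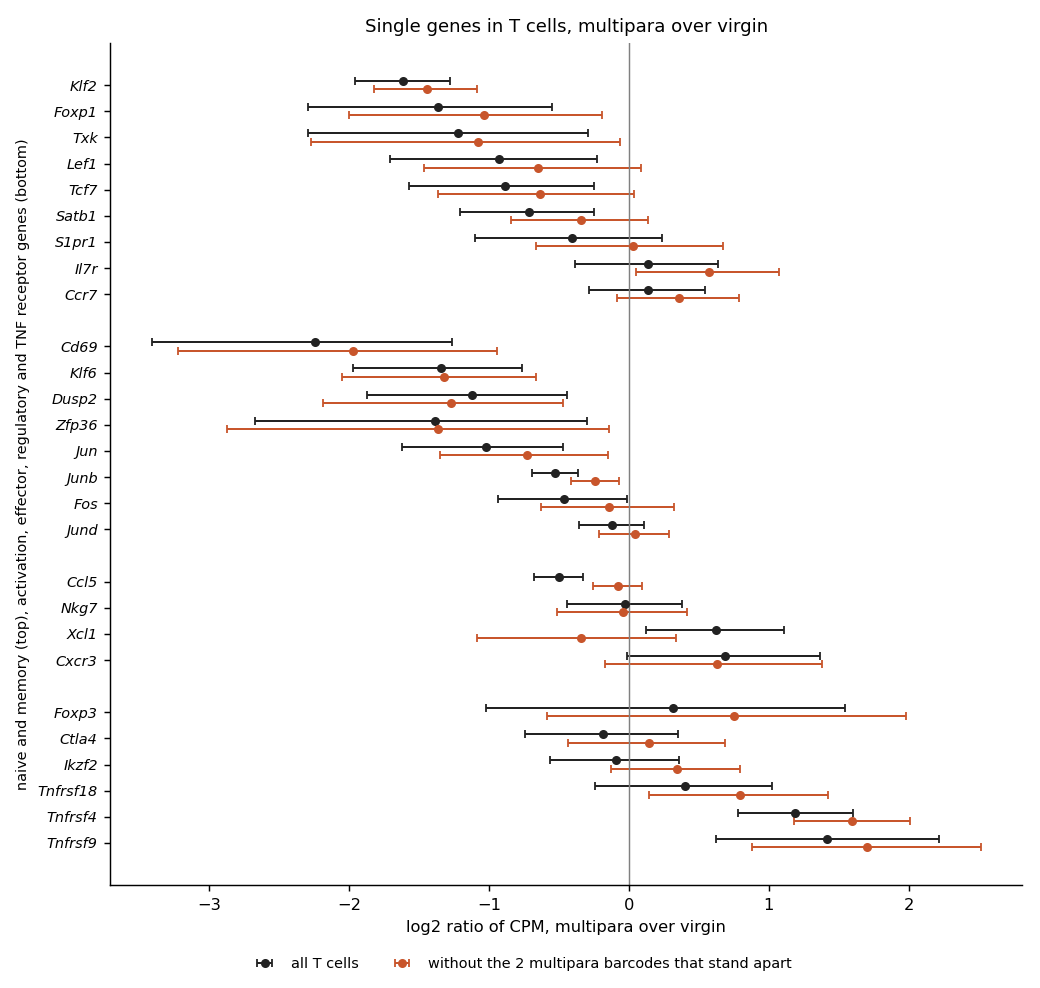
Log2 ratio of CPM (multipara over virgin, x axis) for single genes, with all T cells in black, without the pair of multipara barcodes in orange, and exact 95% intervals that cover counting error only. Klf2, Cd69 and Klf6 lie left of 0 and Tnfrsf4 and Tnfrsf9 right of 0 in both settings, and Ccl5 moves from −0.50 to −0.08 when the pair is left out.

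Cd69 was also lower in the multipara library. This early activation antigen, which holds T cells in tissue by binding S1pr1, gave 106 UMIs in 52 virgin cells and 9 UMIs in 5 multipara cells, and the log2 ratio was −2.24 (−3.41 to −1.26) and −1.98 (−3.22 to −0.94) without the pair. At equal depth it was seen in 30.0% of virgin (21.6 to 39.5) and 5.0% of multipara T cells (0.6 to 16.9), and these intervals do not overlap. In endocrine droplets Cd69 was found in 0.611% and 0.108%. By class, without the pair, CD8 cells had 37 UMIs in 18 of 37 virgin cells and 4 UMIs in 1 of 5 multipara cells, a ratio of −0.02 with a wide interval (−1.97 to 1.46). Among cells with neither coreceptor Cd69 gave 55 UMIs in 26 of 64 virgin and 4 UMIs in 3 of 31 multipara cells, at −2.63 (−4.56 to −1.19). CD4 cells gave 14 UMIs in 8 of 26 virgin cells and 0 in 4 multipara cells.

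Immediate early genes, which respond within minutes to activation and also to cell dissociation, were lower in multipara T cells. Of 20 measured, 18 were lower and 6 of 19 with at least 50 CPM passed −1, against 3.59% of all genes. The list summed to 9490 and 6765 CPM, a log2 ratio of −0.49 (−0.58 to −0.40). Without the pair of barcodes the ratio was −0.22 (−0.32 to −0.13), with 15 lower and 4 of 19 past −1, against 3.64%. The same list stood at −0.16 (−0.27 to −0.06) in B cells and at 0.06 in endocrine droplets.

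Klf6 was the clearest of these genes, with 177 UMIs in 71 virgin cells and 28 UMIs in 12 multipara cells, and the log2 ratio was −1.34 (−1.97 to −0.76) and −1.32 (−2.05 to −0.67) without the pair. Dusp2, a phosphatase that switches off MAP kinases, stood at −1.12 (114 and 21 UMIs) and −1.27 without the pair, and Zfp36, which destabilises cytokine transcripts, at −1.38 (52 and 8 UMIs) and −1.36. Jun was at −1.02, and −0.73 without the pair. Junb had the highest level, 3086 and 2139 CPM in 125 and 42 cells (−0.53, and −0.24 without the pair). Jund (−0.12, and 0.04 without the pair) and Nfkbia (−0.26, and 0.12 without the pair) had intervals that include 0. Fosb was higher, at 0.48 (−0.24 to 1.18), with an interval that includes 0.

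Effector genes as a group were close to level, and their ratio lay nearer to 0 without the pair of barcodes. Of 24 listed, 17 were measured, 7 were higher and 10 lower, and 1 of 9 passed 1, against 4.05%. The list summed to 4076 and 3537 CPM, a log2 ratio of −0.20 (−0.34 to −0.07), and −0.06 (−0.20 to 0.08) without the pair, where 0 of 8 passed 1 or −1, against 3.51% and 3.64%. Ccl5 gave 1205 UMIs in 37 virgin cells and 342 UMIs in 14 multipara cells, and a cell that had any held a median of 22 and 19.5. Its log2 ratio was −0.50 (−0.68 to −0.33) over all cells and −0.08 (−0.26 to 0.09) without the pair. Ccl5 cells were 29.1% of virgin and 33.3% of multipara T cells, and 27.3% (19.2 to 36.6) and 32.5% (18.6 to 49.1) at equal depth, against 1.05% and 0.649% of endocrine droplets. Of these cells, 31 of 37 and 12 of 14 also had Nkg7, and only 10 and 2 had Cd8b1.

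Cytotoxic genes gave few UMIs. Gzmb gave 1 and 4 UMIs, Gzma 1 and 1, and Prf1, the pore-forming protein perforin, 13 and 4. Ifng gave 16 UMIs in 10 virgin cells and 10 UMIs in 4 multipara cells, Tnf 4 and 1, and Il2 1 and 0. Of the 10 multipara Ifng UMIs, 6 lay in 1 barcode of the pair. Cx3cr1, a receptor of terminal effector cells, had 0 in both. Gzmk, a granzyme of memory-like CD8 cells, gave 8 and 17 UMIs, a log2 ratio of 2.40 (1.11 to 3.82), but 10 of the multipara UMIs came from the barcode with most UMIs, and without the pair the ratio was 1.56 (−0.14 to 3.22). Klrg1, an inhibitory receptor of effector cells, gave 2 UMIs in 2 virgin cells and 15 UMIs in 4 multipara cells, and 8 without the pair, a ratio of 3.75 (1.43 to 7.03) from very few counts. Xcl1, a chemokine that draws cross-presenting dendritic cells, turned from 0.62 (0.12 to 1.11) to −0.34 (−1.08 to 0.34) without the pair, since 33 of its 58 multipara UMIs came from 1 cell.

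The regulatory list did not differ between libraries beyond counting error. Foxp3, the factor that defines regulatory T cells, gave 18 UMIs in 12 virgin cells (9.45%) and 9 UMIs in 6 multipara cells (14.3%). At equal depth Foxp3 cells were 7.27% (3.2 to 13.8) and 12.5% (4.2 to 26.8), against 0.058% and 0.036% of endocrine droplets. All 12 virgin and all 6 multipara Foxp3 cells had Tnfrsf4, 11 and 5 had Ctla4, 10 and 5 had Ikzf2, 4 and 2 had Cd4, and 0 had Cd8b1. The regulatory list stood at 1249 and 1105 CPM, −0.18 (−0.42 to 0.06), and at 0.23 (−0.01 to 0.47) without the pair. Of 9 measured genes 3 were higher and 6 lower, and 5 were higher and 4 lower without the pair, with 0 past 1 or −1 in either case. Lrrc32, which docks latent TGF-beta on regulatory T cells, gave 30 UMIs in 13 virgin and 3 UMIs in 2 multipara cells, a ratio of −2.01 (−4.36 to −0.32) and −1.57 (−3.93 to 0.12) without the pair.

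Tnfrsf4 and Tnfrsf9, costimulatory receptors of the tumour necrosis factor family, were higher in multipara T cells. They are set side by side here after their values were seen. Tnfrsf4 gave 106 UMIs in 37 virgin cells and 97 UMIs in 17 multipara cells, 235 and 536 CPM, a log2 ratio of 1.19 (0.78 to 1.60) and 1.59 (1.18 to 2.01) without the pair. A cell with any Tnfrsf4 UMI held a median of 2 in virgin cells and 4 in multipara cells. The share of cells with a UMI overlapped at equal depth, 23.6% (16.1 to 32.7) and 35.0% (20.6 to 51.7), while endocrine droplets showed 1.25% and 1.05%. Among CD4 cells it gave 47 UMIs in 15 virgin cells and 32 UMIs in only 4 multipara cells, a ratio of 1.41 (0.71 to 2.09). Among cells with neither coreceptor it gave 57 UMIs in 21 virgin and 63 UMIs in 12 multipara cells, a ratio of 1.29 (0.75 to 1.84). The highest multipara T cell held 16 of the 97 UMIs. Tnfrsf9, the receptor 4-1BB, gave 28 UMIs in 13 virgin cells and 30 UMIs in 10 multipara cells, at 1.42 (0.62 to 2.21) and 1.70 (0.88 to 2.52) without the pair. It was also present in 7.04% and 8.01% of endocrine droplets, and 1 multipara T cell held 10 of its 30 UMIs. Tnfrsf18, the receptor GITR, was at 0.40 (−0.24 to 1.03), with an interval that includes 0, and at 0.80 (0.14 to 1.42) without the pair. Cd27, a further costimulatory receptor of this family, gave 86 and 50 UMIs and stood at 0.53 (0.0013 to 1.05), and at 0.85 (0.30 to 1.38) without the pair.

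Activated and tissue-resident genes were level as a group, at 4677 and 4891 CPM, with 9 genes higher and 9 lower, 1 of 18 past 1 (Tnfrsf4, against 4.05%) and 1 past −1 (Cd69, against 3.59%). Without the pair the ratio was 0.21 (0.09 to 0.34), and Cd44, a receptor for hyaluronan on experienced T cells, joined Cd69 past −1 with 41 and 6 UMIs. S100a10, a partner of annexin A2, stood at 0.39 (0.10 to 0.68). Bhlhe40, a factor that supports cytokine production by resident T cells, gave 114 and 69 UMIs and stood at 0.59 (0.14 to 1.04), and at 0.83 without the pair. Cxcr6, Id2 and Rora had intervals that include 0.

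Checkpoint genes were few in UMIs. Pdcd1 (PD-1) gave 19 and 10 UMIs, Lag3 17 and 11, Tox 58 and 23 and Havcr2 1 and 2, each with an interval of the ratio that includes 0. The list ratio of 0.55 (0.16 to 0.94), and 0.66 without the pair, went to 0.26 (−0.22 to 0.72) when Tnfrsf9 was taken out of the list. Helper lineages could not be read at this depth. Gata3 gave 31 and 11 UMIs and Bcl6 7 and 3, and the cytokine genes Il17a, Il13 and Il21 had 0 in both libraries. The helper list stood at −0.03 (−0.81 to 0.70).

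A small group of virgin T cells carried NK receptor genes. Klre1, a lectin-like receptor of NK cells, gave 33 UMIs in 14 virgin T cells and 0 in multipara T cells, which puts it at least 4.42-fold higher in the virgin library against a floor of 3 UMIs in the multipara library. All 14 of these cells had Ccl5, 12 had Xcl1, 7 had Klra7 and 2 had Cd8b1. Fcer1g, a signalling adaptor of innate receptors, gave 18 UMIs in 8 virgin cells, all with Xcl1 and none with Cd4 or Cd8b1, and was at least 2.41-fold higher in the virgin library. Klra7 gave 15 and 0 UMIs, at least 2.01-fold higher. Trdc, the constant segment of the delta chain, gave 12 UMIs in 4 virgin cells and 0 in multipara cells. Against the same floor it was 1.61-fold higher, and none of the 4 cells also had Tcrg-C1. These fold values set the floor over all multipara UMIs, the pair of barcodes included, and take the virgin counts as exact. They would be lower without the pair and are not intervals of the ratio. Ncr1, a receptor that defines NK cells, and Tyrobp, an adaptor of NK and myeloid cells, had 0 UMIs in T cells of both libraries. The 14 innate-like genes summed to 64 and 3 UMIs, a log2 ratio of −3.10 (−5.41 to −1.49), and −2.66 without the pair. At equal depth a Klre1 UMI was found in 7 of 110 virgin T cells (6.36%) and in 0 of 40 multipara T cells. With the limit for 0 again set at 3 counts, this allows a share of up to 7.5%, so a difference in share was not detectable at this depth.

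Cycling genes were detected at a low level in the virgin library and in 1 multipara cell at a high level. At least 1 UMI of the 23 cycling genes was found in 63 of 127 virgin (49.6%) and 17 of 42 multipara T cells (40.5%), and at least 2 UMIs in 24 (18.9%) and 4 (9.52%). At equal depth the shares with at least 1 were 40.0% (30.8 to 49.8) and 27.5% (14.6 to 43.9). No virgin T cell exceeded 5 cycling UMIs and no other multipara T cell 3. The list gave 99 and 252 UMIs, and the log2 ratio was 2.66 (2.32 to 3.01), with 4 of 6 genes past 1, against 4.05%. Without the pair it gave 99 and 18 UMIs and −0.71 (−1.52 to 0.03), the opposite sign with an interval that reaches 0, and 0 of its genes kept a mean of 50 CPM. Mki67 gave 0 UMIs in virgin cells and 11 in multipara cells, Birc5 0 and 15, Pclaf 1 and 23 and Top2a 5 and 22, and the single multipara barcode held 11, 15, 23 and 21 of these. Most virgin cycling UMIs came from the replication genes Mcm6 (27), Pcna (20) and Mcm3 (15), which resting cells also transcribe at a low level. The multipara barcode also held 10 Cd8b1, 33 Xcl1, 18 Nkg7, 10 Gzmk, 8 Eomes and 7 Klrg1 UMIs, with 0 Gzmb, 0 Ccr7 and 0 haemoglobin UMIs.

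**Figure D5:**
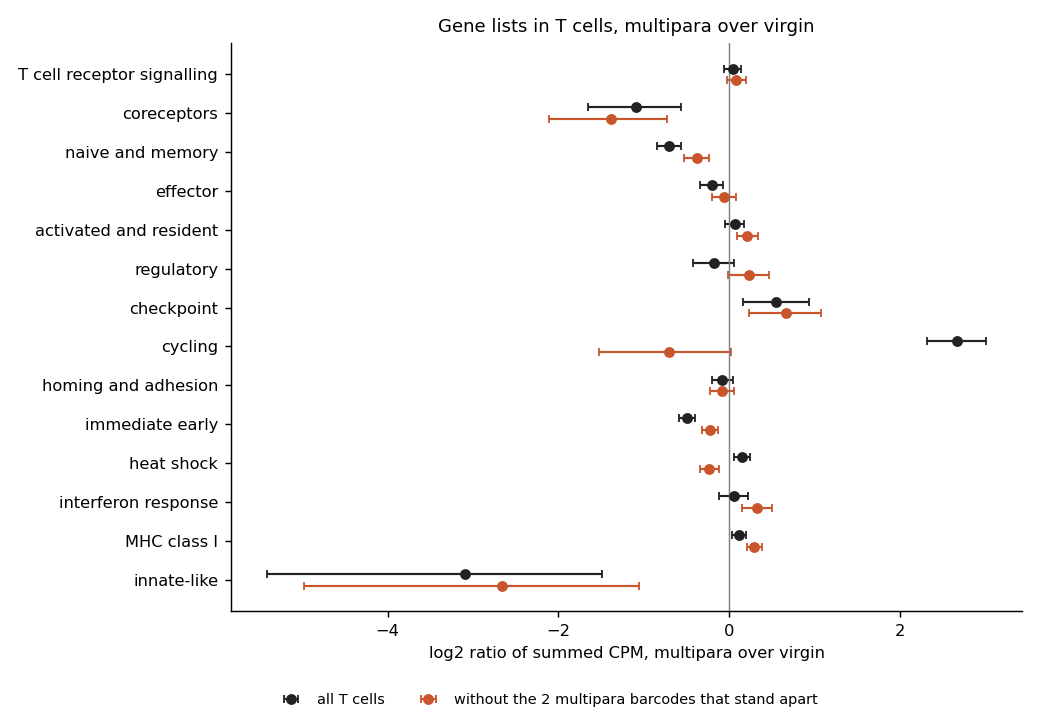
Log2 ratio of summed CPM (multipara over virgin, x axis) for 14 gene lists (y axis), with all T cells in black and without the pair of multipara barcodes in orange, and exact 95% intervals that cover counting error only. The cycling list moves from 2.66 to −0.71 when the pair is left out, while the naive and memory list (−0.70 and −0.38) and the immediate early list (−0.49 and −0.22) stay left of 0.

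Heat shock genes took their direction from the same barcode, with a list ratio of 0.15 (0.06 to 0.24) over all cells and −0.23 (−0.34 to −0.12) without the pair. Hsp90aa1 turned from 0.42 to −0.38 and Hsp90ab1 from 0.35 to −0.17, while Dnajb1 was lower in both settings, at −1.07 and −0.88. With all cells 8 of 13 measured genes were higher and 1 of 11 passed −1, and without the pair 12 of 13 were lower and 0 passed. Interferon response genes were level over all cells at 0.05 (−0.12 to 0.22) and stood at 0.33 (0.15 to 0.51) without the pair. There Irf1 was at 0.69 and Ifi27l2a at 0.45, and 0 of 10 genes passed 1 or −1. MHC class I genes stood at 0.11 (0.03 to 0.20) and 0.29 (0.20 to 0.38), at −0.27 in B cells, and with 0 of 9 genes past 1 or −1. Homing and adhesion genes were level at −0.08 in both settings, although Selplg, the ligand of P-selectin, stood at −0.93 (−1.63 to −0.29) and at −0.62 (−1.35 to 0.05) without the pair. Cxcr4, the receptor that retains lymphocytes in marrow and tissue niches, gave 78 UMIs in 44 virgin cells and 23 UMIs in 6 multipara cells. Of the latter, 18 lay in the barcode with most UMIs, and without the pair the ratio went from −0.45 (−1.18 to 0.24) to −2.21 (−3.87 to −0.93).

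Over all genes with at least 50 CPM, the 10 highest ratios came mainly from the pair of barcodes. They were the haemoglobin genes Hbb-bs, Hbb-bt, Hba-a1 and Hba-a2, the red cell genes Alas2 and Bpgm, the cycling genes Pclaf, Ube2c and Top2a, and Penk. Of these only Penk, the precursor of enkephalins, stayed above 1 with more than 10 UMIs, giving 0 UMIs in virgin cells and 27 in 3 multipara cells, 23 of them in 1 cell. The 10 lowest were Ly6c2, Hilpda, Cd69, Igkc, Rpp25l, Ube2h, Ccdc88c, Add3, Ikbkb and Clcn3. Ly6c2, a surface protein of memory CD8 cells and of monocytes, gave 148 UMIs in 26 virgin cells and 9 UMIs in 2 multipara cells. Its log2 ratio was −2.72 (−3.88 to −1.76), and −2.29 (−3.44 to −1.32) without the pair. Within cells with a Ccl5 UMI it gave 128 UMIs in 21 of 37 virgin and 9 UMIs in 2 of 13 multipara cells, at −2.02 (−3.18 to −1.05), and in CD4 cells it gave 0 in both libraries. Hilpda, a lipid droplet protein induced by hypoxia, gave 49 and 4 UMIs (−2.30, −4.23 to −0.85), with 15 of the 49 in 1 virgin cell. Igkc, an immunoglobulin gene, was lower in multipara T cells as it was in multipara endocrine droplets.

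Without the pair of barcodes the highest genes included Ifngr2, a chain of the interferon gamma receptor, with 15 UMIs in 14 virgin cells and 20 UMIs in 11 multipara cells (2.17, 1.13 to 3.24), and Tnfrsf9. Ins1, Chgb and Pcsk2, which are endocrine genes, were also among them at 1.70, 1.75 and 1.75, as was Ero1lb (1.99), beside the higher hormone share of multipara T cells. Gpr183, the oxysterol receptor that positions lymphocytes, was among the lowest, with 95 UMIs in 50 virgin cells and 7 UMIs in the remaining multipara cells (−2.01, −3.36 to −0.91).

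Receptor chain usage differed little as far as it could be read. Trbc1 and Trbc2 are near-identical constant segments, and reads between them may be split, so single values are uncertain. Trbc1 was 34.3% of their UMIs in virgin and 34.9% in multipara T cells, with the pair of barcodes included. The barcode with most UMIs gave 65 of the 222 multipara Trbc1 UMIs. Among cells with at least 5 UMIs of both, 15 of 96 virgin and 4 of 34 multipara cells had 80% or more from Trbc1, and 52 and 15 had 20% or less. Variable segments were barely captured by 3′ reads. Of 176 such genes, 21 gave 31 UMIs in 24 virgin cells and 8 gave 8 UMIs in 8 multipara cells, too few to read clonality.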

How the data were processed

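Raw UMI counts per gene and barcode were deposited by the authors for 1 virgin and 1 multipara islet library. The submitters' processing notes name Cell Ranger 3.1.0, Seurat 3.0 and the builds GRCm38 and mm10. Total UMIs were 94853806 and 82503776, and every barcode had at least 500. Genes (31053) were handled by Ensembl identifier, and positions came from GENCODE M21. T cells were chosen as stated in the report. B cells were kept cells under the hormone limit with at least 3 Cd79a and Ms4a1 UMIs and 0 UMIs of the 5 T cell genes. Scrublet (scanpy 1.11.5) calls were recorded but not used to remove members. UMIs were summed per library and class and scaled to CPM. Intervals were exact Poisson (levels), Clopper-Pearson (shares) and conditional binomial (log2 ratios), all at 95%. With 1 library per group there was no test, and cells were not used as replicates. List summaries used genes whose UMIs over both libraries reached 10, and counts past a log2 ratio of 1 those whose mean level reached 50 CPM. Shares were also computed after thinning cells to 2200 UMIs. Named genes were those of the gene lists, the 10 highest and 10 lowest ratios at 50 CPM, and the 10 genes highest in CD8 and in CD4 cells. Genes of the extremes without the pair of barcodes, and the split by Ccl5, were added after values were seen. The members and lists were chosen with earlier results of these data known. Some members of the gene lists count in the list totals but are not reported here by name. Ratios and intervals were checked on simulated counts drawn independently, which leave out the uneven spread of UMIs between cells. Software was numpy 2.4.6, scipy 1.17.1, pandas 2.3.3, python 3.11.15, matplotlib 3.10.9 and edgeR 4.0.16 (R 4.3.3) for TMM factors only.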

Additional observations from a re-analysis of the deposited data

Results flagged for a closer look

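Barcodes with the T cell gene signal of the members but outside the other limits were found in both libraries. In the virgin library, 5 such barcodes were left out for a mitochondrial share of 10% or more, 4 for B cell gene UMIs and 10 for a hormone share of 15% or more, out of 146 barcodes that passed the T cell gene rule. In the multipara library the corresponding counts were 3, 0 and 1 of 46. These barcodes were not used in the comparisons, and each of the 3 virgin counts lay above the floor of 3. The part of doublets and free RNA in them was not tested.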

How the results depend on the processing

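Shares, list ratios, counts of genes and ratios of named genes were recomputed under those of 24 alternative settings that apply to them, giving 1832 values. Ratios within single cell classes were not part of this. Of those for shares, list sums and counts of genes, 328 stayed within the interval or direction of the reported value, 62 moved and 10 reversed, and of those for single genes and list medians 1296 stayed, 118 moved and 18 reversed. The cause was not tested except where a setting by its construction uses other cells. No paired analysis was possible because each group has 1 library and the labels give no shared replicate numbers. Depth limits most single genes, since multipara T cells held 180931 UMIs in all.

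Leaving out both barcodes that stand apart, a setting chosen after seeing the data, gave log2 sums of −0.38 for naive and memory, −0.057 for effector, 0.21 for activated and resident, 0.23 for regulatory, −0.22 for immediate early, 0.33 for interferon and 0.29 for MHC class I genes, and reversed cycling to −0.71 and heat shock to −0.23. Xcl1 reversed to −0.34, Hsp90ab1 to −0.17, Hsp90aa1 to −0.38 and Hspd1 to −0.022. The naive and memory list without Klf2, also chosen after seeing the data, stood at −0.43, and at −0.079 with both barcodes left out. Leaving out only the T cell with most UMIs, also chosen after seeing the data, gave −0.40 for naive and memory, 0.14 for regulatory, −0.27 for immediate early, 0.31 for interferon and 0.24 for MHC class I genes, and reversed cycling to −0.58, heat shock to −0.28, Xcl1 to −0.26, Hsp90ab1 to −0.24 and Hsp90aa1 to −0.42.

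With each cell weighted equally, the naive and memory list stood at −0.29, cycling at 0.31, immediate early at −0.28, interferon at 0.25 and MHC class I at 0.26, while effector reversed to 0.22, heat shock to −0.22, Ccl5 to 0.20, Hsp90ab1 to −0.23, Hsp90aa1 to −0.27 and Hspd1 to −0.16. Thinned to 1 depth, virgin CD4 cells were 13.6%, virgin cells with a cycling UMI 40.0% and with 2 or more 10.0%, and 164 and 161 genes passed 1 and −1 in place of 97 and 86. There the naive and memory list stood at −0.38, regulatory at 0.12, cycling at 0.33, interferon at 0.34 and MHC class I at 0.29, and effector reversed to 0.21, heat shock to −0.20, Ccl5 to 0.15, Xcl1 to −0.060, Hsp90ab1 to −0.15, Hsp90aa1 to −0.34 and Psmb9 to −0.10.

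A mitochondrial limit of 5% left T cells at 1.15% of virgin and 0.565% of multipara kept cells. Virgin cells with a cycling UMI were then 38.2%, with 2 or more 11.8%, and multipara cells with a cycling UMI 21.4%, and 170 and 311 genes passed 1 and −1. Coreceptors stood at −3.21, activated and resident genes at −0.082, regulatory at 0.18, homing at −0.36 and MHC class I at 0.25, and cycling reversed to −0.96, heat shock to −0.55, Hsp90ab1 to −0.49 and Hsp90aa1 to −0.62. A hormone limit of 5% left multipara T cells at 0.889% of kept cells, with effector at −0.42, immediate early at −0.60 and interferon at −0.14. No hormone limit gave T cell receptor signalling at 0.19, naive and memory at −0.54, activated and resident at 0.23, homing at 0.094 and MHC class I at 0.25. Without the B cell genes in the rule, effector stood at −0.071.

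TMM scaling put T cell receptor signalling at −0.071, immediate early at −0.60, heat shock at 0.038 and MHC class I at 0.00039, and median-of-ratios scaling put immediate early at −0.58, heat shock at 0.057 and MHC class I at 0.019. By denominator, T cells were 13.3% and 6.99% of kept cells under the hormone limit, and 42.5% and 50.6% of T and B cells.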
